A study of Drosophila melanogaster with 3 samples.

Results

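The miRNA genes of Drosophila melanogaster were examined in a map of where the tagged zinc finger protein CG8319 was recovered on chromatin. Members were all genes of the Ensembl annotation whose symbol begins with mir-, a pattern that takes in let-7 and bantam under the symbols mir-let7 and mir-ban. There were 260 of them among 17683 genes on the 6 chromosome arms. Each was read for peak summits within 500 bp of its annotated start, within 5000 bp upstream of that start, and within 500 bp of any start site of a gene on the same strand that contains it, called its host here. The assay was ChIP-seq, which sequences DNA recovered with a protein, in whole prepupae of the transgenic strain CG8319-GFP, in which a GFP fused to the C terminus of CG8319 was recovered with an anti-GFP antibody. All 3 samples belonged to this single group, numbered as biological replicates 1, 2 and 3, with males and females pooled, an age given as unknown, and chromatin sheared by sonication to 200 to 800 bp. All 3 came from the same transgenic line and an untagged line was not used here, so groups could not be compared and no test was made. Because whole animals were used, strong occupancy in few cells and weak occupancy in many cells cannot be told apart.

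A miRNA is usually cut from a hairpin within a longer primary transcript, first by Drosha in the nucleus and then by Dicer in the cytoplasm. The mature strand guides an Argonaute protein to target messages that pair with its seed. The annotated start of a miRNA gene is the 5′ end of the hairpin, which can lie kilobases from the promoter of the primary transcript. Several hairpins can share a transcript, and others lie within introns of protein-coding hosts. In prepupae the steroid hormone ecdysone drives metamorphosis, and several miRNAs are known to act in its timing or in the growth of the tissues it remodels.

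Mature sequences are shown for the miRNAs on whose loci the results below turn, so that relatives can be recognised by their seed. They come from the RefSeq genome and annotation of the dm6 build and run 5′ to 3′, with the seed (bases 2 to 8) in capitals.
miR-279: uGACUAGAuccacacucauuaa
miR-996: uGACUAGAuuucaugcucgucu
miR-282: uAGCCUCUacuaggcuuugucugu
miR-9a: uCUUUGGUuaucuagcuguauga
bantam: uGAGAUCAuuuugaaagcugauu
miR-275: uCAGGUACcugaaguagcgcgcg
miR-305: aUUGUACUucaucaggugcucug
miR-317: uGAACACAgcuggugguauccagu
miR-277: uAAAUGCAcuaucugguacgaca
miR-34: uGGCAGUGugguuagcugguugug
miR-2a: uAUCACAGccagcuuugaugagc
miR-2b: uAUCACAGccagcuuugaggagc
let-7: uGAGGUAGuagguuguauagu
The miR-279 and miR-996 hairpins lie in the same locus and share a seed, which miR-286 of another locus also has. The seed of miR-9a is shared with miR-9b and miR-9c, and that of miR-275 with miR-306. Of these relatives, miR-286, miR-9b, miR-9c and miR-306 had no upstream summit in the list of reproducible peaks used below. The miR-2a and miR-2b sequences share another with the miR-13 and miR-6 families, miR-11 and miR-308. A single annotated mature product was read for each member, out of 481 mature entries. Over all 260 members these products held 224 different seeds, and 17 of the seeds were shared by several members.

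The sequence recovered most strongly upstream of these miRNAs is shown for 6 loci as the 101 bp centred on the peak summit, on the plus strand of dm6. Labels name the hairpins of a locus, but the mir-317 peak lay within 5000 bp of mir-317 only and was 13146 bp from mir-34. Capitals mark stretches of at least 8 consecutive bases that are all A or T.
mir-279 and mir-996, chr3R:29214386-29214486: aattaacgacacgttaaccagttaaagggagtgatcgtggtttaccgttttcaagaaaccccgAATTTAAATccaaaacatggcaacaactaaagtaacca
mir-282, chr3L:3248802-3248902: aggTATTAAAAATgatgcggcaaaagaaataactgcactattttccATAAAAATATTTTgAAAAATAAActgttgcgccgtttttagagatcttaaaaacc
mir-9a, chr3L:19560756-19560856: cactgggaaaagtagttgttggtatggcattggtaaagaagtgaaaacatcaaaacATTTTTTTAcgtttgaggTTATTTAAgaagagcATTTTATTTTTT
bantam, chr3L:640694-640794: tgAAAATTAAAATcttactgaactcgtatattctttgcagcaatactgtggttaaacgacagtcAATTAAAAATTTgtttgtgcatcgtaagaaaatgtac
mir-317, mir-277 and mir-34, chr3R:10087740-10087840: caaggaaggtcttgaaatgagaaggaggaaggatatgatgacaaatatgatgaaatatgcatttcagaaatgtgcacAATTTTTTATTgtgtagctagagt
mir-275 and mir-305, chr2L:7425307-7425407: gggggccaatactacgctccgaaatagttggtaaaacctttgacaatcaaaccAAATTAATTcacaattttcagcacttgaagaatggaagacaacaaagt
Each of the 6 windows held at least 1 such stretch. The window of the peak upstream of mir-2b-2, mir-2a-1 and mir-2a-2, not printed here, held none, and its longest run of A or T was 6 bp. The A or T content was 62.4% at mir-279, 71.3% at mir-282, 70.3% at mir-9a, 70.3% at bantam, 66.3% at mir-317 and 62.4% at mir-275.

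Few miRNA genes had a peak at the hairpin itself. In the optimal list, the authors' 4410 peaks that passed their reproducibility filter, 4 of 260 members (1.54%) had a summit within 500 bp of the annotated start, where the share over the 5′ ends of all genes was 10.5%. In the 4410 highest-signal rows of each replicate's own list the count was 6, 4 and 4 members in replicates 1, 2 and 3 (4.67 ± 1.15, SD, n = 3), with background shares of 11.4%, 10.8% and 10.7%. No optimal summit lay inside a hairpin, and 1 hairpin was overlapped by an optimal peak. The miRNA share was thus below the background in each replicate and in the optimal list. This was not particular to miRNA genes. In the optimal list, 12 of 290 tRNA genes (4.14%) and 10 of 269 snoRNA genes (3.72%) had a summit within 500 bp of the start.

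Upstream of the hairpins the miRNA genes stood close to the background. A summit lay within 5000 bp upstream of 51 members (19.6%), and the share over all genes was 21.9%. The members' replicate lists gave 48, 51 and 51 members (18.5%, 19.6% and 19.6%; mean 50 ± 1.73 members, SD, n = 3) beside background shares of 22.6%, 22.2% and 21.7%. A top summit lay upstream in all 3 replicates for 35 members, and all of these 35 were among the 51. The optimal list was itself made from the replicates, so this overlap is partly built in. The count in all 3 replicates was not made over all genes, so the 35 have no background beside them. Downstream of the start the count was 28 members (10.8%), where all genes gave 16.3%.

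Members on the same strand with starts within 10000 bp of the next were joined into 203 loci, of which 22 held several hairpins. Upstream of the first hairpin, 45 of the 203 loci (22.2%) had an optimal summit. In 1-kb steps the loci reached their highest upstream shares at 3 to 4 kb and at 5 to 6 kb from the hairpin, at 7.88% of loci in each. Each was 16 of 203 loci, and all genes gave 3.90% and 3.99% in those steps. The step from 8000 to 8999 bp downstream was nearly as high, at 15 loci (7.39%), where all genes gave 3.77%. Over all genes the highest step was the first 1000 bp upstream, at 10.3% of genes, where the loci gave 4.43%. In the first 1000 bp downstream the shares were 0.985% of loci and 4.28% of genes.

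**Figure D1:**
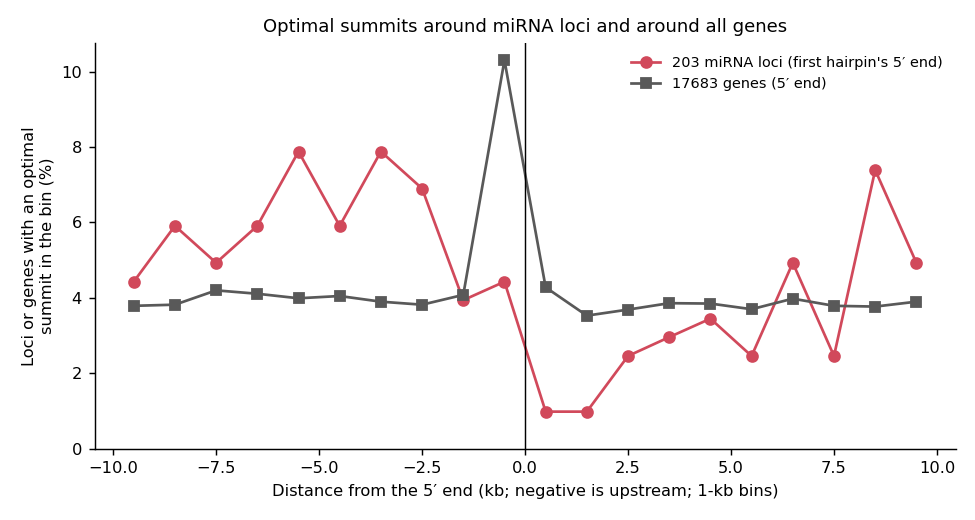
Share of the 203 miRNA loci (circles, measured from the 5′ end of the first hairpin) and of all 17683 genes (squares, from the 5′ end) with an optimal summit in each 1-kb step, on a linear axis in percent. All genes peak at 10.3% in the first 1000 bp upstream, while the loci show no such peak and give 4.43% there.

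Members were also counted by the gene that holds the hairpin, beside the upstream share of 21.9% over all genes. An upstream summit was found for 9 of 46 members inside a non-coding host (19.6%), 31 of 136 inside a protein-coding host (22.8%), 5 of 27 lying only antisense within a gene (18.5%) and 6 of 51 outside any gene (11.8%). On the X chromosome the count was 6 of 58 members (10.3%), where all genes of the arm gave 21.8%, and on 3L it was 10 of 31 (32.3%), where all genes gave 24.4%. The counts were 14 of 56 (25.0%) on 2L, 11 of 55 (20.0%) on 2R and 10 of 58 (17.2%) on 3R, with 20.5%, 20.4% and 22.6% of all genes. On chromosome 4 they were 0 of 2 members and 14.0% of all genes. Hairpins of the same locus were each counted in these shares. On X, the 12 hairpins of the mir-972 locus and the 5 of the mir-984 locus had no upstream summit. Most hairpins of the mir-972 locus lie outside any gene. Members whose number is under 1000, most of them the longer known miRNAs, gave 24 of 133 (18.0%). Those numbered 1000 or above gave 27 of 127 (21.3%), beside 21.9% of all genes. For other small RNA genes, 51 of 290 tRNA genes (17.6%) and 121 of 269 snoRNA genes (45.0%) had an upstream summit, without a test of the difference.

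The strongest miRNA peak lay at the locus of mir-279 (3R, 29215585 to 29215684, plus strand) and mir-996 (3R, 29217184 to 29217280), a pair that restrains the formation of certain sensory neurons. Its signal, the authors' peak value, was 1156 in the optimal list, where it ranked 19 of 4410, and it was 243, 590.4 and 322 in replicates 1, 2 and 3. The scale of the signal differs between lists, so ranks are the fairer measure, and the peak ranked 23, 13 and 20 in the replicates' own lists of 30000 rows. The summit (3R, 29214255 to 29214612, intergenic) lay 1149 bp upstream of mir-279 and 2748 bp upstream of mir-996. It was 126 bp upstream of the annotated start of lncRNA:CR31044 (FBgn0051044), the non-coding host whose exons hold both hairpins. A second peak, 4817 bp upstream of mir-279, had a signal of 88.2 and stood just above the lowest optimal signal of 87.3.

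The miRNA mir-282 (3L, 3251022 to 3251118) had the next highest peak and 4 upstream peaks in all. The strongest had an optimal signal of 633 and signals of 145, 266 and 232 in replicates 1, 2 and 3, where it ranked 91, 138 and 54. It lay 2170 bp upstream of the hairpin (3L, 3248688 to 3248947, in an exon of CG43389) and 488 bp upstream of a start of the non-coding host lncRNA:CR43626. The others lay 1968, 3327 and 4461 bp upstream with signals of 353, 336 and 308. The peaks at 2170 and 1968 bp matched the same row in replicates 1 and 2, and only replicate 3 listed them apart, at signals of 232 and 29.1.

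At mir-9a (3L, 19565131 to 19565208), which limits the number of sensory organ precursors, the stronger of a pair of peaks lay 4325 bp upstream (3L, 19560690 to 19560992, intergenic). Its signal was 462 in the optimal list and 100.4, 245 and 103 in replicates 1, 2 and 3, with ranks of 278, 164 and 410. That summit was 384 bp from a start of lncRNA:CR44676, a gene that does not contain the hairpin. The other peak, 3184 bp upstream with a signal of 189, lay 689 bp upstream of the host lncRNA:CR45916, outside the 500 bp window.

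For bantam (mir-ban, 3L, 642208 to 642288), which promotes tissue growth and blocks cell death, the single upstream peak lay 1464 bp from the hairpin. It fell in an exon of the host lncRNA:CR43334 (3L, 640648 to 640755) with an optimal signal of 309. In replicates 1, 2 and 3 the signal was 77.7, 156 and 74.5, at ranks of 532, 522 and 815. The nearest host start lay 1030 bp away, so no start site was within 500 bp of this peak.

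The mir-8 gene (2R, 16831432 to 16831518), which acts in the fat body on insulin-driven body growth, had 3 upstream peaks. The strongest lay 3050 bp upstream (2R, 16828257 to 16828437, intergenic), at an optimal signal of 329 and at 62.2, 150.2 and 112 in replicates 1, 2 and 3. No start site was within 500 bp of it. A peak 940 bp upstream, with signals of 233 in the optimal list and 61.0, 109 and 59.3 in the replicates, lay 197 bp from a start of the host lncRNA:CR43650. The third, 2846 bp upstream, had a signal of 114 and matched the same row in replicate 3 as the strongest.

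At the cluster of mir-317, mir-277 and mir-34 (3R, 10091126 to 10101034), an optimal peak lay 3336 bp upstream of mir-317 in an intron of lncRNA:CR45054 (3R, 10087710 to 10087823). Its signal was 262 in the optimal list and 73.0, 127 and 68.5 in replicates 1, 2 and 3. From mir-34, which protects the ageing brain, it was 13146 bp away, and mir-277, a regulator of branched-chain amino acid breakdown, likewise had no summit within 5000 bp. The miRNA mir-87 (2L, 9950418 to 9950516) had a peak 3829 bp upstream with an optimal signal of 296 and replicate signals of 94.6, 131 and 74.3. It lay 20 bp from a start of CG4709, a protein-coding gene that is not its host.

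The remaining 3 of the 10 strongest loci were miRNAs of high number whose peaks lay at starts of protein-coding genes. For mir-9380 (3R, 8348702 to 8348778), a peak 664 bp upstream with an optimal signal of 523 and replicate signals of 107, 249 and 162 lay 373 bp from a start of Atg13, an autophagy gene. For mir-4943 (2L, 16528375 to 16528491), the peak 4798 bp upstream (signal 447; 117, 227 and 109 in replicates 1, 2 and 3) lay 412 bp upstream of a start of its host CG5953. For mir-9382 (2L, 12724957 to 12725025), the peak 2904 bp upstream (signal 418; 77.1, 184 and 153) lay within 500 bp of starts of both its host MRP, an ABC transporter gene, and Pih1D1. In all 10 loci the strongest peak was among the top 4410 rows of every replicate, and replicate 2 gave the highest signal in each.

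**Figure D2:**
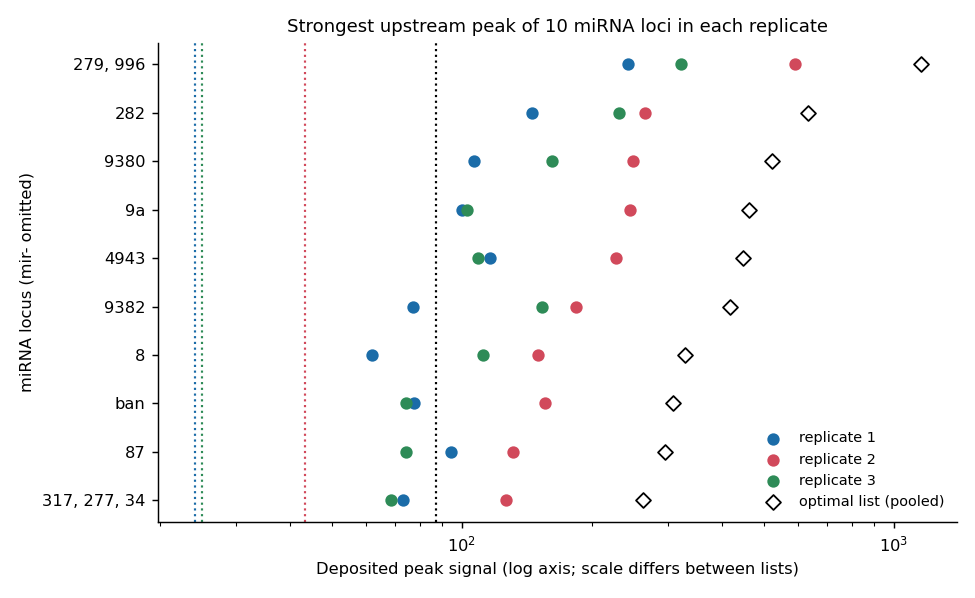
Deposited signal of the strongest upstream peak of the 10 loci in replicates 1, 2 and 3 (circles) and in the optimal list (diamonds), on a log axis; dotted lines mark the last of the top 4410 rows of each list in the same colour. Every circle lies to the right of its replicate's line, and mir-279 with mir-996 stands highest in all lists, at 243, 590.4 and 322 in the replicates.

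Of the 4 members with a summit within 500 bp of the hairpin start, only mir-275 was numbered under 1000. The gene mir-275 (2L, 7425795 to 7425892), which in Aedes mosquitoes is needed for blood digestion, shares its locus with mir-305 (2L, 7425972 to 7426044), a miRNA that acts in intestinal stem cells. A peak 438 bp upstream of mir-275 and 615 bp upstream of mir-305 (2L, 7425332 to 7425433) lay in an exon of lncRNA:CR43857. Its signal was 199 in the optimal list and 49.5, 94.6 and 58.0 in replicates 1, 2 and 3, at ranks of 1321, 1367 and 1298. Further peaks 1365, 2342 and 2953 bp upstream of mir-275 had lower signals, of 89.8, 96.6 and 124. The one at 2342 bp lay 367 bp upstream of the annotated start of lncRNA:CR43857.

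The other 3 were X-linked members of high number. For mir-2496 (2010300 to 2010417), peaks 498 and 733 bp upstream had optimal signals of 109.7 and 145, and both matched the same row in replicates 1 and 2. They lay within 500 bp of starts of PIG-K and lncRNA:CR45478. For mir-9377 (12665217 to 12665268), the summit lay 385 bp downstream, inside an intron of the host Tis11, with an optimal signal of 177 and replicate signals of 41.0, 68.8 and 71.3. For mir-2491 (22833440 to 22833583), it lay 123 bp upstream in an intron of the host fog, with an optimal signal of 143 and replicate signals of 25.4, 75.6 and 43.3. Just outside the window were mir-92a at 550 bp and mir-305 at 615 bp, and at the 5000 bp limit mir-4944 at 4870 bp and mir-193 at 4974 bp were inside, while mir-9376 at 5088 bp and mir-4983 at 5213 bp were outside.

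**Figure D3:**
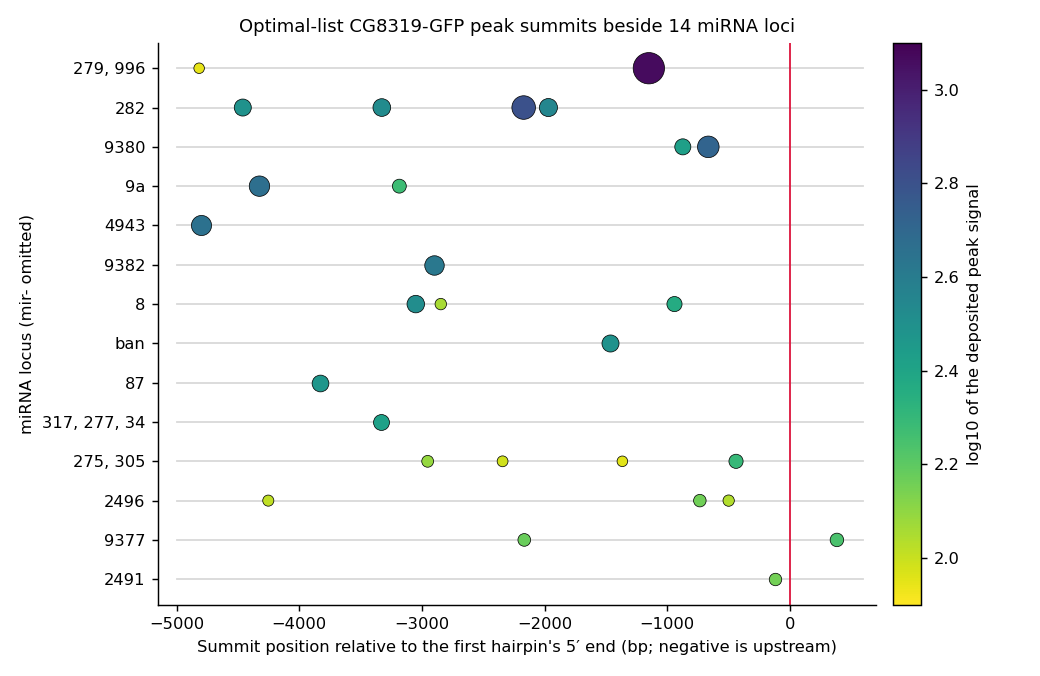
Position of each optimal summit from 5000 bp upstream to 500 bp downstream of the first hairpin (red line), for the 10 loci with the strongest upstream peak and the 4 loci with a summit within 500 bp; larger and darker points have a higher deposited signal on a log10 colour scale. The strongest point, at 1156, lies 1149 bp upstream of mir-279, and a single point, at mir-9377, lies downstream.

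The 67 different optimal peaks upstream of members were of ordinary strength. Their median signal was 142 (range 88.2 to 1156), and that of all optimal peaks was 145. Of the 67, 40 (59.7%) overlapped by 1 bp or more a top row of all 3 replicates, 17 of exactly 2 and 10 of exactly 1, and the share in all 3 over all optimal peaks was 66.1%. By place, 28 summits were intergenic, 23 in introns and 16 in exons. Start sites of genes other than miRNAs lay within 500 bp of 37 of the summits, those of a host at 18 and those of other genes at 21, with some at both, and 30 had no start site so near. Places and nearby start sites were not counted over all optimal peaks, so these counts cannot be called particular to miRNA genes.

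These 67 peaks resembled the whole list in base content. Within 50 bp of the summit they were 65.3% A or T and 55.6% in windows of the same width 300 bp to either side, and over all optimal peaks the values were 66.5% and 55.0%. A stretch of at least 8 bases of A or T occurred in 55 of 67 summit windows (82.1%) and in 49.3% of their flanks, with 76.5% and 45.4% over all optimal peaks. The searched motifs were rare, each read on both strands. GAGAG, bound by GAGA factor, occurred in 3 of the 67 windows (4.48%) and in 9.37% of all optimal windows. The motif of GATA factors, AGATAA, occurred in 4 (5.97%) and in 7.85% of all. The E-box CACGTG occurred in 1 (1.49%, all 0.680%) and the DREF motif TATCGATA in 0 (all 0.930%). None of the 4 motifs occurred in the 6 windows printed above.

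Host genes carried peaks at their own start sites in 32 of 165 cases (19.4%), and the share over all genes was 12.3%. In the replicates' top rows the counts were 38, 32 and 38 hosts (mean 21.8% ± 2.10, SD, n = 3), with backgrounds of 13.3%, 12.5% and 12.4%. Of the 128 protein-coding hosts 26 (20.3%) had such a peak, beside 14.0% of all protein-coding genes, and of the 37 non-coding hosts 6 (16.2%), beside 7.14% of ncRNA genes other than miRNA genes. Hosts were also longer: protein-coding hosts had a median length of 14094.5 bp and a mean of 2.21 start sites, and all protein-coding genes 2166 bp and 1.41. Non-coding hosts had a median length of 6436 bp and ncRNA genes other than miRNA genes 701 bp. Among protein-coding genes of at least 10000 bp the shares were 21 of 73 hosts (28.8%) and 22.1% of all. The part of length and number of start sites in the remaining gap was not tested.

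**Figure D4:**
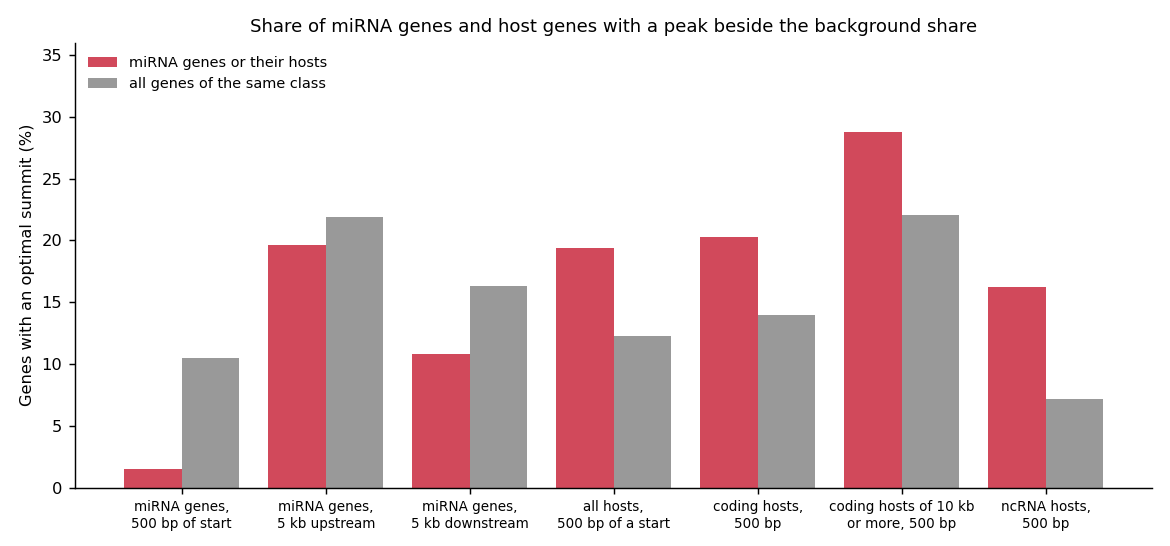
Percent of miRNA genes or host genes with an optimal summit (red) beside the percent over all genes of the same class (grey), for each window, on a linear axis from 0. Members lie below the background at the start (1.54% and 10.5%), near it upstream (19.6% and 21.9%), and hosts lie above theirs in each class.

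Among the 10 hosts with the strongest start peak, lncRNA:CR31044 and lncRNA:CR43626 were the hosts of mir-279 with mir-996 and of mir-282 described above, and CG5953 and MRP those of mir-4943 and mir-9382. The gene for (FBgn0000721, 2L), which encodes a cGMP-dependent protein kinase of foraging behaviour, had a signal of 763 in the optimal list and 194, 374 and 182 in replicates 1, 2 and 3. Its peak lay 342 bp upstream of an internal start site but 4577 bp downstream of mir-4972. Btk, a Tec-family tyrosine kinase gene holding mir-2b-1, had a peak of signal 524 (115, 249 and 153), 19172 bp upstream of the hairpin. The gene bun, a growth regulator holding mir-967, had a peak of signal 474 (112, 228 and 122), 23861 bp upstream of it.

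The gene spi, which encodes the EGF receptor ligand Spitz, holds mir-2b-2, mir-2a-1 and mir-2a-2 on 2L and had 4 peaks near its start sites. The strongest had a signal of 459 in the optimal list and 106, 205 and 141 in replicates 1, 2 and 3, and lay 5519 bp upstream of mir-2b-2. A weaker intronic peak (signal 226; 50.3, 108 and 72.7) lay 373 bp from a spi start and 2719 bp upstream of mir-2b-2. Members of the miR-2 seed family hold down the cell death genes hid, grim and reaper. Within 5000 bp upstream, 4 of the 13 hairpins of this family had a peak, beside 21.9% of all genes. Of these, mir-2a-1, mir-2a-2 and mir-2b-2 share the spi peak of signal 226, and the other is mir-308. PAPLA1, a phospholipase gene holding mir-4984, had a peak of signal 355 (70.9, 181 and 110) shared with the start of Rbsn-5. The gene jigr1, which holds mir-92a and mir-92b of neural stem cells, had a peak of signal 248 (58.4, 109 and 76.9) lying 550 bp downstream of mir-92a and 4342 bp upstream of mir-92b.

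Over the 32 hosts with a start peak, the highest such peak had a median signal of 211, was found in the top rows of all 3 replicates at 25 hosts, and lay a median of 5158.5 bp (550 to 23861) from the first hairpin. It was upstream of the hairpin at 29 of the 32. At 8 hosts the summit was also within 500 bp of a start of another gene. Among these, chk and CG45092 share a peak and so do Usp12-46 and CG7029, so the 32 hosts do not stand for 32 separate peaks. Some 68 members had an upstream summit or a host with a start peak, and 192 had neither. The same either-or count was not made over all genes, so the 68 have no background beside them.

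Of the 9 members on the ecdysone and developmental timing list, 3 had an optimal upstream summit, mir-8, bantam and mir-965, beside 21.9% of all genes. The miRNA mir-965, which acts on proliferating abdominal histoblasts, lies in the gene kis, and its peaks 4919 and 3783 bp upstream had signals of 154 and 92.6. The let-7 complex, of mir-100, let-7 and mir-125, is switched on by the hormone in late larvae and prepupae, and none of its 3 hairpins had an optimal upstream summit. The highest pooled row there, 2607 bp upstream of mir-100, ranked 4849 with a signal of 81.0, below the 4410 rows of the optimal list. In replicates 1, 2 and 3 its signal was 11.6, 35.7 and 27.9, at ranks of 12934, 5792 and 3846.

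A strong peak did lie near the distant start of the let-7 complex transcript. In an intron of lncRNA:let7C (2L, 18455717 to 18473132), 531 bp downstream of its annotated start and 15786 bp upstream of let-7, a peak (18456152 to 18456398) had an optimal signal of 351 and ranked 440. Its signal was 118, 134 and 99.8 in replicates 1, 2 and 3, at ranks of 164, 711 and 446, so each replicate listed it among its top rows. It fell just outside the 500 bp window and was therefore in neither count. The others on the list, mir-34, mir-14 (a regulator of fat metabolism and of ecdysone signalling) and mir-252, had their nearest optimal summits 13146, 3910 and 11143 bp away, that of mir-34 upstream and the others downstream.

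On the growth and cell death list 5 of 16 members had an upstream summit, beside 21.9% of all genes. They were bantam, mir-308, and mir-2a-1, mir-2a-2 and mir-2b-2, which share the same spi peak. The gene mir-308 lies in the ribosomal protein gene RpS23, 751 bp downstream of a peak of signal 111 (28.2, 38.2 and 33.4 in replicates 1, 2 and 3) placed 12 bp from the RpS23 start. The mir-2c, mir-13a and mir-13b-1 cluster and the 3 copies of mir-6 had none, and the nearest summits lay 28594 to 28883 bp from the mir-6 copies. The miRNA mir-11, which lies in the cell cycle gene E2f1, had its nearest summit 3172 bp downstream.

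On the patterning, nerve and muscle list 6 of 14 members had an upstream summit, beside 21.9% of all genes. They belong to 4 loci: mir-279 and mir-996, which share a peak, mir-275 and mir-305, which share theirs, mir-9a, and mir-263b. The miRNA mir-263b, which protects sense organs from cell death, had a single weak peak of signal 89.6 at 4563 bp, with signals of 21.0, 64.0 and 11.5 in replicates 1, 2 and 3. The muscle miRNAs mir-1 and mir-133, the neuronal mir-124, the photoreceptor miRNA mir-7 and the Hox cluster miRNAs mir-iab-4 and mir-iab-8 had none, nor did mir-184 or mir-263a, annotated as mir-bft. For mir-1 and mir-124 the nearest optimal summits lay 23881 and 52095 bp away.

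Among genes of the miRNA machinery, 9 of 26 had an optimal summit no more than 500 bp from an annotated start, beside 14.0% of all protein-coding genes. In nuclear processing and export this was Cbp20 alone of 6, a cap-binding subunit (signal 137), and not drosha or pasha. In dicing and Argonaute loading it was the chaperone genes Hsp83 (333; 110.2, 126 and 85.6 in replicates 1, 2 and 3) and Hsc70-4 (104), and not Dcr-1, loqs or AGO1. Of the 9 silencing genes, gw, which encodes the GW182 scaffold, had a signal of 228 (52.0, 125 and 51.6), pAbp one of 154 and the deadenylase gene Pop2 one of 121. The trimming exonuclease gene Nbr gave 95.2. In the siRNA branch AGO2 gave 200.4 (81.9, 55.6 and 59.9) and r2d2 gave 142, while Dcr-2 had none. The peaks of Cbp20, Hsc70-4, Pop2, Nbr and r2d2 were shared with the start of another gene. The Nbr peak was among the top rows of 1 replicate, and those of Cbp20, Hsc70-4 and Pop2 of 2. In replicate 3 the row nearest the r2d2 summit had a signal of 10.1 at rank 18023, though a top row also overlapped the peak. Any start site counted, and Hsc70-4 has 6, where all protein-coding genes have a mean of 1.41. The part of start site number in the count of 9 was not tested.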

How the data were processed

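The deposited signal values come from peak lists in dm6 coordinates that the authors made from 3 ChIP-seq samples of 1 group. Per the file headers and notes deposited with the lists, each replicate list and the pooled list (30000 rows each) were called against a control, and the optimal list (4410 rows) passed an irreproducible discovery rate filter. The sources used here give neither the peak caller nor the aligner nor their versions, and the depth of each sample is unknown. The dm3 lists were not used. Summits were set against Ensembl release 115 genes with pandas 2.3.3 and numpy 2.4.6 (Python 3.11.15). Transposable elements and 481 entries that repeat mature miRNA arms were left out. Peaks were matched between lists by an overlap of 1 bp or more, taking the row with the nearest summit for its value. A replicate's top rows are its 4410 of highest signal. Named genes are the members with a summit within 500 bp of the start, the 10 loci and 10 hosts with the strongest peaks, and the members of 3 lists, with mir-263a matched to mir-bft by its RefSeq synonym. Members and lists were chosen with earlier results of these data known, and the A or T stretch of 8 bases was chosen after seeing the windows. Window queries were tested on simulated data with planted peaks. No test was run, since there is 1 group.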

Additional observations from a re-analysis of the deposited data

How the results depend on the processing

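Counts moved with the width of the window and the length of the list. Shares over all genes were not counted at the other windows and list lengths, or with a replicate left out. Whether the members stay below, near or above the background at those settings was not tested. Summits at the hairpin start were found for 1 member within 200 bp and 12 within 1000 bp, and for 2 members with the 2205 strongest optimal peaks and 15 with the 8820 strongest pooled rows. Upstream counts were 18 members (16 loci) within 2000 bp, 85 (74) within 10000 bp, 28 (22) with the shorter list and 80 (68) with the longer. Host counts were 11 within 200 bp, 20 with the shorter list and 53 with the longer. The replicate mean fell to 28.3 members when 2205 top rows per replicate were used. Requiring a top row in the other replicates when a replicate was left out gave 36 to 39 members upstream, 30 to 33 loci, 26 to 28 hosts and 4 members at the start, and the mean without a replicate was 49.5 to 51. Peak intervals in place of summits kept the start, upstream, locus and host counts within 1.5 times the reported ones, and so did a 1000 bp window for hosts. The same held for the start count with RefSeq genes, the upstream count without peaks at starts of other genes, the locus count with a gap of 2000 bp, and the host count with protein-coding hosts alone or upstream start sites alone. No paired analysis was possible because there is 1 group and the counts come from no test. Depth is unknown, so no count error or floor could be given. An untagged control list was not used here, so peaks common to any immunoprecipitation could not be told apart from those of CG8319. The whole-animal samples limit the cell types that can be named.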
